A study of Mus musculus with 3 samples.

Results

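The transcription factors that drive the epithelial-mesenchymal transition, together with vimentin, were examined in LLC/luc cells before and after selection in bone. The group holds 9 genes, the factors Snai1, Snai2, Twist1, Twist2, Zeb1, Zeb2, Prrx1 and Foxc2 and the filament gene Vim, chosen by gene symbol and not by any measured value, of 19057 genes named on the array. They are read by 21 of its 45281 probes. LLC/luc is a luciferase-carrying form of Lewis lung carcinoma, a lung cancer line of C57BL/6 mice, and the luciferase lets tumors be followed by light. The parental cells were compared with 2 sub-lines. BM 1st was cultured from bone lesions after intracardiac injection of parental cells into mice, and BM 2nd in the same way after injection of BM 1st cells. The paper's text speaks of metastatic lesions, while its figure legend describes culture of bone marrow cells, for BM 2nd those of a single mouse. All 3 lines share the luciferase gene, the strain and culture in DMEM with fetal bovine serum. GEO's cell type label calls all 3 lines osteotropic, the parental line included, while the subtype label separates the parental line from the 2 generations of selection. Total RNA of each line was hybridised to 1 Illumina mouse bead array in 1 colour, with 1 culture behind each array as far as the labels say, so no value below has a replicate check or a p-value, and precision is limited by the number of arrays.

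In the epithelial-mesenchymal transition, cells joined by E-cadherin loosen their contacts, exchange keratin filaments for vimentin and gain the ability to move. The Snail and Zeb zinc finger proteins bind short E-box sequences and repress epithelial genes, the Twist proteins bind E-boxes as dimers with E proteins, and Prrx1 and Foxc2 are homeobox and forkhead factors that can drive the same switch. In carcinomas these factors are known for their part in invasion and spread, and a return toward the epithelial state has been described in metastases of some tumors.

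A level is given below as the deposited linear intensity of a probe, and a difference as the log2 ratio of 2 intensities. Background was set on each array at the 95th percentile of 1503 probes for olfactory and vomeronasal receptors, which was 109, 110 and 107 across parental, BM 1st and BM 2nd cells. Genes whose brightest probe lay above that level on 1 or both arrays of a pair were compared, and a log2 ratio past 1 or -1 counted as higher or lower. Above background lay 9660, 9548 and 10015 genes in parental, BM 1st and BM 2nd cells. Of the 21 probes of the EMT factors and vimentin, 12 lay above background on all 3 arrays, 1 on 2 arrays and 8 on none. By its brightest probe, each of the factors except Foxc2 was above background in every line, as was Vim, so 8 of the 9 genes entered the comparisons.

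None of these 8 genes passed the threshold between BM 2nd and parental cells, and 1, Snai2, did between BM 1st and parental cells, where it was lower. Over all genes 3.37% passed between BM 2nd and parental cells (356 of 10578), 3.84% between BM 1st and parental cells (398 of 10375) and 4.79% between BM 2nd and BM 1st cells (506 of 10558), where again none of the 8 did. With shares this small, 0 or 1 of 8 does not set the factors apart from other genes. The median log2 ratio of the 8 was -0.08 in BM 2nd against parental cells, with a lowest value of -0.56 and a highest of 0.35, beside a median of 0.01 over all genes compared. In BM 1st against parental cells it was -0.09, beside -0.01 over all genes, and in BM 2nd against BM 1st cells 0.04, beside -0.01. Within 0.5 of 0 lay 7 of the 8 in BM 2nd against parental cells, 7 in BM 1st against parental cells and 6 in BM 2nd against BM 1st cells, and over all genes 82.6%, 82.8% and 79.7% did in those comparisons. The deposited values had been brought to 1 common distribution, and centring each array on the median of its own probes above background added 0.14 to every BM 2nd to parental log2 ratio and 0.16 to every ratio of BM 2nd to BM 1st cells, against -0.02 for BM 1st to parental cells. That scaling left the calls of the 8 genes as they were, but turned the sign of their median in BM 2nd against parental cells, to 0.05. Over all genes it moved the calls in BM 2nd against parental cells to 285 higher and 106 lower, where the deposited values gave 194 higher and 162 lower, and in BM 2nd against BM 1st cells to 465 higher and 115 lower, where they gave 318 and 188. The medians over all genes were 0.01 and -0.01 in these comparisons as deposited, and centring moved them further from 0. A call gained or lost after centring therefore reflects a shift common to all genes.

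**Figure D1:**
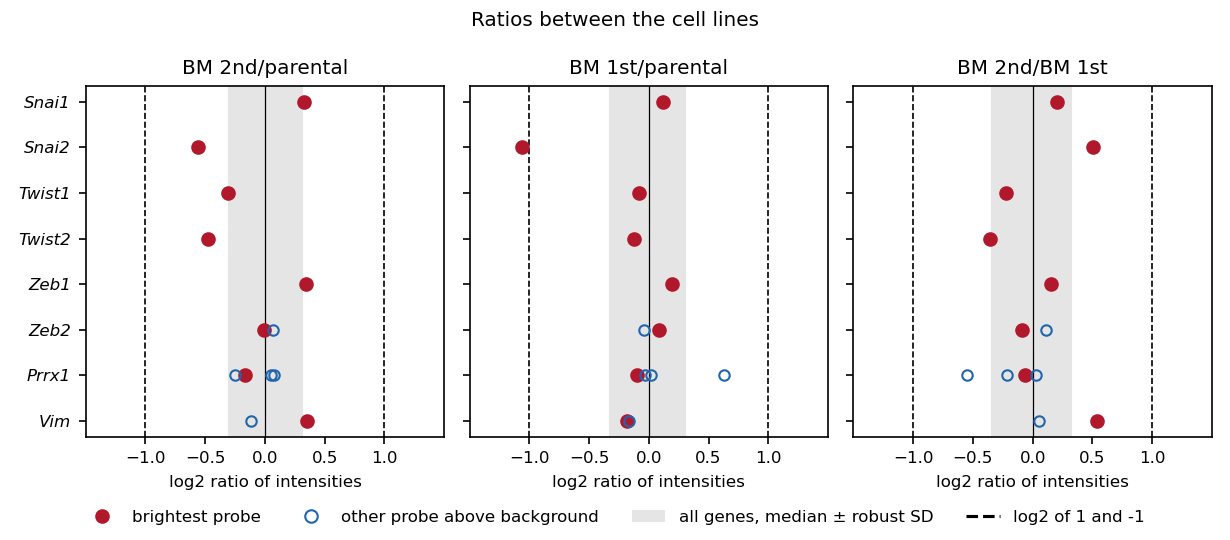
Log2 ratios of the 8 genes above background, as deposited, in 3 panels (BM 2nd over parental, then BM 1st over parental, then BM 2nd over BM 1st). Filled red points are a gene's brightest probe, open blue points its other probes above background on at least 1 array, the grey band is the median of all genes compared plus and minus their robust SD, and dashed lines mark 1 and -1. Only Snai2 in BM 1st against parental cells, at -1.06, lies outside the dashed lines, and 1 probe of Prrx1 stands apart from the others at 0.63 in the same panel.

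Snai2, which encodes the repressor SLUG, had the largest ratio of the 8 genes in either comparison with parental cells. Its single probe had an intensity of 1012, 485 and 687 across parental, BM 1st and BM 2nd cells. The parental cells were thus highest and BM 1st cells lowest, with BM 2nd cells between them. The log2 ratio was -1.06 in BM 1st against parental cells, 2.09-fold lower, and 354 of the 10375 genes compared (3.41%) had a ratio of that size or more in either direction. In BM 2nd against parental cells it was -0.56, 1.47-fold lower, a size that 14.1% of genes reached, and in BM 2nd against BM 1st cells it was 0.50. BM 2nd cells had 67.9% of the parental intensity and BM 1st cells 47.9%, so that 38.4% of the BM 1st difference was absent in BM 2nd cells. The ratio for BM 1st cells lay close to the threshold, and it was -1.08 after centring and -1.23 after the background was subtracted. Snai2 had no other probe against which this difference could be set, and in such bulk RNA fewer cells of a type and less RNA per cell cannot be told apart.

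Of the 8646 genes above background on all 3 arrays, 35 lay within 0.25 of Snai2 in the plane of the 2 log2 ratios to parental cells, and the nearest were Txnip, Ogfr and Zfp777. Txnip, which encodes a protein that binds thioredoxin, had intensities of 2499, 1205 and 1738 in parental, BM 1st and BM 2nd cells, at a distance of 0.035. Ogfr, the gene of the opioid growth factor receptor, had 1449, 689 and 1015, at 0.046. Zfp777, a zinc finger gene, had 751, 374 and 506, at 0.055. All 3 were chosen by nearness to Snai2, so their being lowest in BM 1st cells follows from that choice. The likeness rests on 3 arrays.

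Snai1, which encodes SNAIL, the best known repressor of E-cadherin, was read at low signal. Its brighter probe gave 208, 226 and 260 across parental, BM 1st and BM 2nd cells, while the other stayed below background at 96.0, 92.2 and 98.6. By the brighter probe parental cells were lowest and BM 2nd cells highest. The log2 ratio was 0.32 in BM 2nd against parental cells, a size that 32.6% of genes reached, 0.12 in BM 1st against parental cells and 0.20 in BM 2nd against BM 1st cells. None of these came near the threshold. Because the background remained in the deposited values, ratios of dim probes understate a difference in RNA, and with the median receptor signal subtracted the BM 2nd to parental ratio of Snai1 was 0.55. The third Snail gene, Snai3, had 142, 103 and 171 in parental, BM 1st and BM 2nd cells and did not pass background in the BM 1st line.

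**Figure D2:**
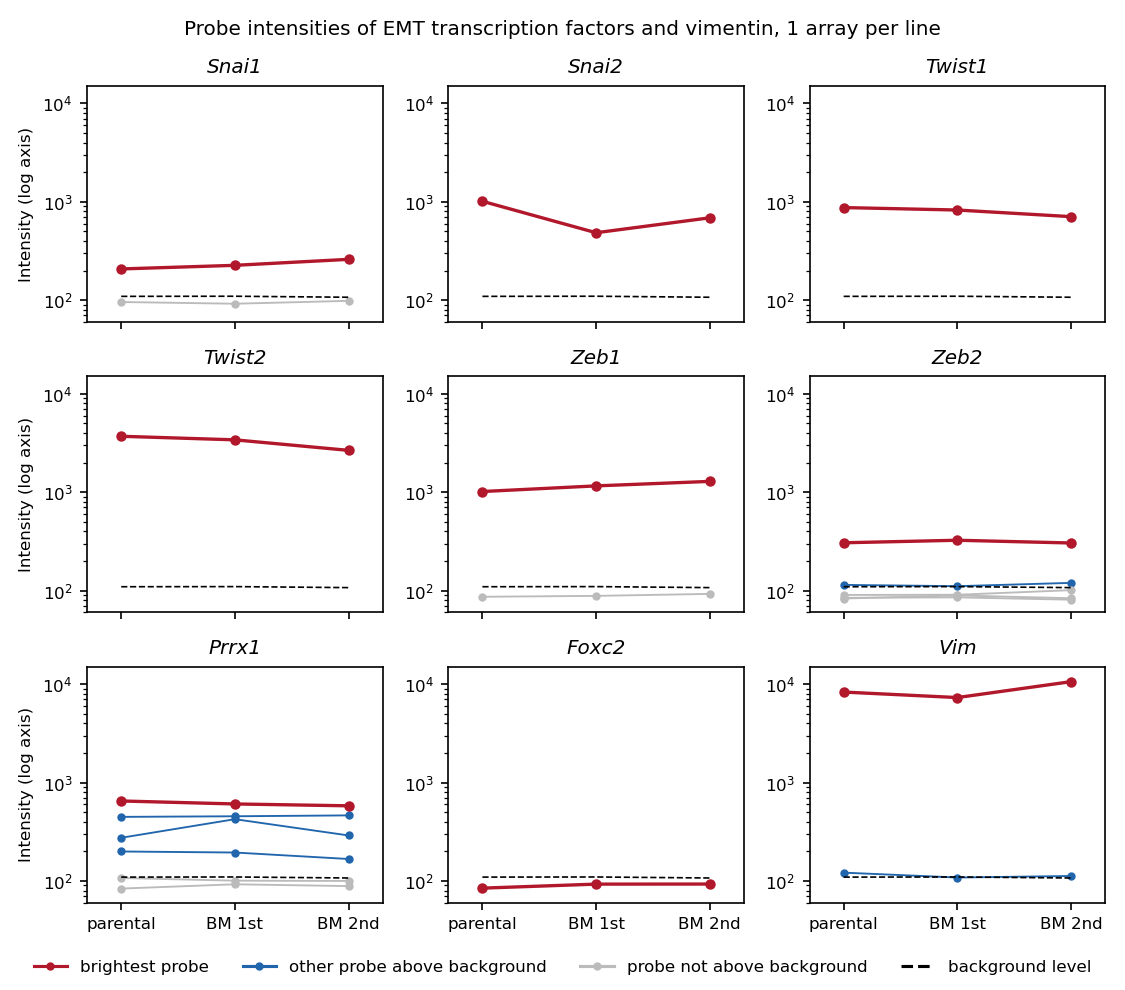
Intensity of each probe of the 9 genes on a log axis, with the parental, BM 1st and BM 2nd arrays from left to right. Red lines are the brightest probe of a gene, blue lines its other probes above background on at least 1 array, grey lines probes not above background, and the dashed line is the background of each array. The Snai2 line dips to 485 in BM 1st cells, against 1012 in parental cells, most other red lines are close to level, and the Foxc2 line stays below background.

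The sequence that SNAIL, SLUG and the ZEB proteins bind best is CAGGTG, which reads CACCTG on the other strand and is 1 form of the wider E-box CANNTG. Promoters of 300 bases, 250 before to 50 after the start, were taken from RefSeq (GRCm38.p6), and either spelling was searched on the printed strand, which covers both strands. Of 32851 mouse promoters 20.2% held CAGGTG or CACCTG, 2.88% held 2 or more and 72.3% held a CANNTG. The table used here had 9 promoters of 6 of the 9 genes, with 4 overlapping or separate starts for Zeb2, and none for Snai2, Zeb1 or Foxc2. Only that of Snai1 held the E-box, and it was also the only one of the 9 with any CANNTG. Of the 20 genes of the epithelial list used further on, 15 had a promoter in the table and 13 of these held CAGGTG or CACCTG, in 17 of 20 promoters, some of which overlap. Cdh1 is not among the 15. In human cells SNAIL has been described to bind an E-box of its own promoter. The Snai1 promoter is shown because it was the only one of the group with the motif, those of Krt18 and Epcam because they are epithelial genes on which these repressors act, and that of Vim because it marks the mesenchymal state. Capitals mark CAGGTG or CACCTG, and each sequence runs 5′ to 3′ on the strand of its gene, which is the plus strand in all 4.
Snai1, chr2:167537945-167538244: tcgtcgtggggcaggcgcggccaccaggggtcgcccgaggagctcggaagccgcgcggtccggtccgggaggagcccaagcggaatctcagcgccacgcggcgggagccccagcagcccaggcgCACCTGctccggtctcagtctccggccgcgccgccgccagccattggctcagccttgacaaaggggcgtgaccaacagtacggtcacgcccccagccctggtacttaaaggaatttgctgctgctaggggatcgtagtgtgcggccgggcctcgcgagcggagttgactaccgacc
Krt18, chr15:102027966-102028265: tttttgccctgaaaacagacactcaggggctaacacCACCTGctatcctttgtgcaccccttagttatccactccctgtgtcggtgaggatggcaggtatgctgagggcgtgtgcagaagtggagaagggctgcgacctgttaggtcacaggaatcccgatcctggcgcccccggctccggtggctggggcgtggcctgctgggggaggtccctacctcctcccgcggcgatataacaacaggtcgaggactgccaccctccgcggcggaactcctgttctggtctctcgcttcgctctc
Epcam, chr17:87635729-87636028: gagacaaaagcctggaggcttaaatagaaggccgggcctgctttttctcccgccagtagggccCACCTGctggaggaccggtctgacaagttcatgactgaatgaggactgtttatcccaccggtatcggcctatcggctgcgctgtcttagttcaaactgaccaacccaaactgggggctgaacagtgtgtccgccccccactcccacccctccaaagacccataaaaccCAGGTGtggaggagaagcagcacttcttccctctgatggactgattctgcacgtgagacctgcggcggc
Vim, chr2:13574061-13574360: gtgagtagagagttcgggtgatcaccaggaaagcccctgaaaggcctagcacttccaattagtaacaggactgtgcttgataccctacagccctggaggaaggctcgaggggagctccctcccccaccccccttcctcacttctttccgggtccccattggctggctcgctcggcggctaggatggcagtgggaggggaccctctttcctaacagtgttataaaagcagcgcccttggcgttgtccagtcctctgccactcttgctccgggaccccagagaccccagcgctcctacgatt
Counted from the start at 0, the first base of the motif lay at -126 in Snai1 and at -214 in Krt18. Epcam held 2 copies, at -187 and -19, and the Vim window held none. A match is a description of the letters and not a bound site, and no match says only that these letters were not in the window.

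The Twist genes were both highest in parental cells. Twist1, a basic helix-loop-helix factor of mesoderm and of invading carcinoma cells, had 873, 825 and 706 across parental, BM 1st and BM 2nd cells. Twist2, its close relative, had 3695, 3399 and 2658 across parental, BM 1st and BM 2nd cells. In both the order was the same, with BM 2nd cells lowest, but the differences were modest. In BM 2nd against parental cells the log2 ratio was -0.31 for Twist1 and -0.48 for Twist2, sizes that 34.6% and 18.8% of all genes reached. In BM 1st against parental cells the values were -0.08 and -0.12, inside the spread of all genes, whose robust SD was 0.31. Each Twist gene has 1 probe, and after centring the BM 2nd to parental ratios were -0.17 for Twist1 and -0.34 for Twist2.

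The Zeb genes did not share an order. Zeb1, which encodes a zinc finger and homeodomain repressor of E-cadherin and of the miR-200 family, had 1015, 1158 and 1286 across parental, BM 1st and BM 2nd cells, so that parental cells were lowest. Its log2 ratio was 0.34 in BM 2nd against parental cells, a size that 30.5% of genes reached, 0.19 in BM 1st against parental cells and 0.15 in BM 2nd against BM 1st cells. A second Zeb1 probe stayed below background on all 3 arrays, at 86.6, 88.4 and 92.6. Zeb2, its paralog, had 306, 325 and 305 across parental, BM 1st and BM 2nd cells, which are nearly level. In BM 2nd against parental cells the log2 ratio was -0.01, and 97.9% of genes had a ratio of that size or more, while centring gave 0.13. A second Zeb2 probe, at 114, 111 and 120, was barely above background and gave 0.07, and the other 3 were below background on every array.

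Prrx1, a paired-related homeobox factor of limb and skeletal mesenchyme, is read by 6 probes, of which 4 lay above background on all 3 arrays and did not share 1 pattern. The brightest gave 649, 606 and 580 across parental, BM 1st and BM 2nd cells, and the next 448, 454 and 464. The dimmest of the 4 gave 199, 195 and 167. In these 3 the lines were close together, with log2 ratios of BM 1st to parental cells of -0.10, 0.02 and -0.03. The remaining probe gave 275, 424 and 290 across parental, BM 1st and BM 2nd cells, and so was higher in BM 1st cells by a log2 ratio of 0.63, while it differed by 0.08 between BM 2nd and parental cells. For comparison, the median SD between probes of a gene was 0.13 in that ratio over 3154 genes with 2 or more probes above background on all arrays. The sign of the BM 1st ratio of Prrx1 therefore depends on the probe, since the mean over its probes above background was 0.13. The part of the transcript that each probe reads was not analysed here. The 4 probes lay between -0.25 and 0.08 in BM 2nd against parental cells.

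Foxc2, a forkhead factor of mesenchyme and lymphatic vessels, had 84.6, 92.9 and 93.1 across parental, BM 1st and BM 2nd cells. All 3 values were under the background of their arrays, so no ratio is given, and the gene was not detectable with its 1 probe. Its relative Foxc1, from the wider list of EMT-driving factors, had 328, 244 and 354 in the same lines and was above background in each.

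Vim, the gene of the intermediate filament protein vimentin, was far above background in all 3 lines, parental cells included. Its brighter probe gave 8296, 7296 and 10577 across parental, BM 1st and BM 2nd cells, so BM 2nd cells were highest and BM 1st cells lowest. The log2 ratio was 0.35 in BM 2nd against parental cells, a size that 29.5% of genes reached, -0.19 in BM 1st against parental cells and 0.54 in BM 2nd against BM 1st cells, a size that 18.2% reached. The other probe gave 122, 108 and 112, next to background, with -0.11 in BM 2nd against parental cells, opposite in sign to the brighter probe. The mean over both was 0.12.

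Across the 2 rounds of selection the EMT factors did not move in 1 direction. Snai1 and Zeb1 were higher at each round, Twist1, Twist2 and the brightest Prrx1 probe lower at each, and Snai2, Zeb2 and Vim turned. Of the 8646 genes above background on all arrays, 14.2% were higher at each round and 18.1% lower at each. Most of these single steps were inside the spread of all genes, and after centring Prrx1 was lower and then higher while Zeb2 was higher at each round. The comparisons share arrays, BM 1st being 1 side of both rounds, so a high or low BM 1st value alone makes a gene turn.

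**Figure D3:**
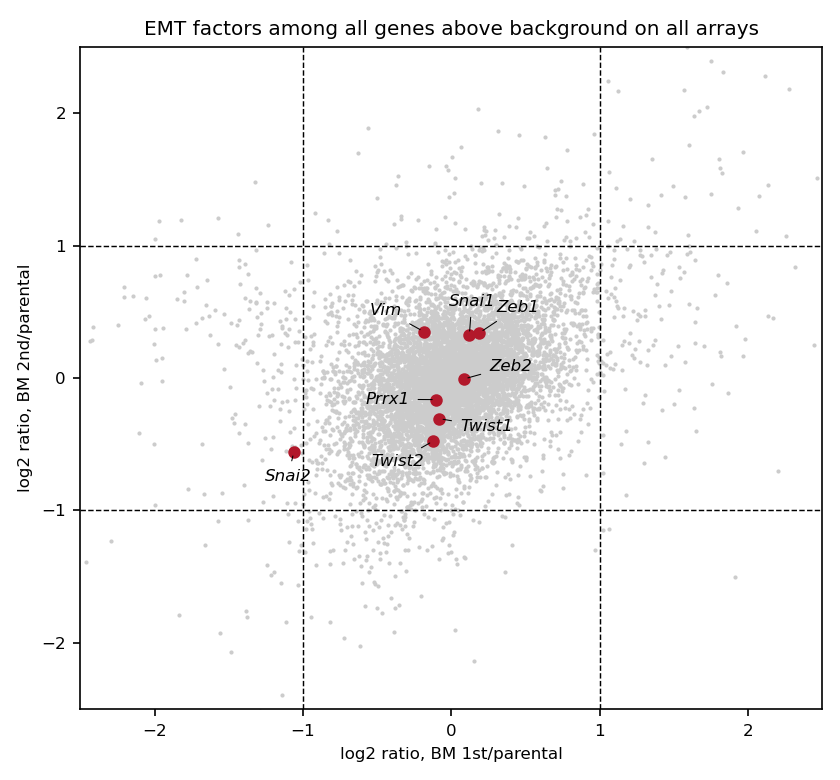
Log2 ratios to parental cells, with BM 2nd on the vertical and BM 1st on the horizontal axis, as deposited, for the 8646 genes above background on all 3 arrays (grey), of which 33 lie outside the axes, with 8 of the EMT genes in red. Dashed lines mark 1 and -1. Snai2 sits just past the left line and the others lie in the central cloud. Both axes share the parental array, so the slope of the cloud is not a result.

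Other genes of the pathway were read from lists and described in the same way. Of 18 further factors that can drive the transition, 16 were compared, and 0 passed the threshold in BM 2nd against parental cells, with a median of 0.00, or 1, Sox9 at 1.03, after centring. In BM 1st against parental cells 1 did, Sox9, a factor of cartilage and progenitor cells, with 2160, 6746 and 4010 across parental, BM 1st and BM 2nd cells and a log2 ratio of 1.64, and the median was 0.22. Wwtr1, which encodes the Hippo pathway coactivator TAZ, had 1091, 1896 and 883, its DNA-binding partner Tead4 had 149, 258 and 127, and Sox4 had 547, 898 and 441. These 3 were highest in BM 1st cells. They were the 3 of 16 past the threshold in BM 2nd against BM 1st cells, all lower, where 1.78% of all genes were lower. The ratios were -1.10 for Wwtr1, -1.02 for Tead4 and -1.03 for Sox4, though none passed after centring.

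Partners and regulators of the factors were mostly level in the comparisons with parental cells and less so between the sub-lines. Of 17 compared, 1 was lower in BM 2nd against parental cells, Csnk1e, a casein kinase gene, with 4030, 3983 and 1896 in parental, BM 1st and BM 2nd cells and a log2 ratio of -1.09, which was -0.95 after centring. Another 1 was lower in BM 1st against parental cells, Id1, whose product holds E proteins away from the Twist factors, with 641, 278 and 803 and a log2 ratio of -1.21. Id3, an inhibitor of the same kind, had 530, 386 and 930, and Sin3a, a corepressor gene, had log2 ratios of 0.54 in BM 2nd and 0.45 in BM 1st against parental cells. The medians of the 17 were 0.02 and -0.05 in these comparisons. Between BM 2nd and BM 1st cells 3 of 17 passed, beside 4.79% of all genes. They were Id1 at 1.53 and Id3 at 1.27, higher, and Csnk1e at -1.07, lower, which was -0.91 after centring. The median of the 17 was 0.10 there.

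Genes of the epithelial state, against which the factors act, were mostly near or below background in all 3 lines, keratins 8 and 18 and Lama5 excepted. Cdh1, the gene of E-cadherin and the best known target of SNAIL and ZEB proteins, gave 121, 116 and 125 across parental, BM 1st and BM 2nd cells, just above background, with a log2 ratio of 0.04 in BM 2nd against parental cells. Epcam stayed below background at 86.5, 84.9 and 85.2. Of 19 epithelial genes with a probe, 7 were below background on every array, and none of the 8 compared in BM 2nd against parental cells or the 11 compared in BM 1st against parental cells passed the threshold, with medians of 0.04 and 0.07. The keratin pair did not move together, since Krt8 had 1381, 997 and 2509 in parental, BM 1st and BM 2nd cells and its partner Krt18 had 2025, 2280 and 1274, and after centring Krt8 stood at the threshold, at 1.00, in BM 2nd against parental cells. Krt8 was the 1 of 12 epithelial genes past the threshold in BM 2nd against BM 1st cells, at 1.33. Lama5, a laminin gene, had 888, 1578 and 886, and Marveld3, of tight junctions, was above background in BM 1st cells alone, at 114. Of 15 factors that keep the epithelial state 9 were compared in BM 2nd against parental cells, with a median of -0.04, and 1 passed, Cdx2, an intestinal homeobox factor, which was at least 2.21-fold lower in BM 2nd cells. In BM 1st against parental cells 8 of the 15 were compared, with a median of 0.09, and 0 passed. Klf5, a factor of epithelial progenitors, had 717, 977 and 373 and was the 1 of 8 past the threshold in BM 2nd against BM 1st cells, at -1.39. Klf4 had a log2 ratio of -0.56 in BM 2nd against parental cells, and Foxa1 exceeded its parental level at least 1.72-fold in BM 2nd cells. Centring turned the sign of the median at -0.04, to 0.10, and left the other BM 2nd to parental list medians of the pathway above 0.

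Of mesenchymal genes that rise in the transition, several passed the threshold. Over all genes compared, 1.83% were higher past the threshold in BM 2nd and 2.04% in BM 1st cells against parental cells. Between BM 2nd and BM 1st cells 3.01% were higher. In BM 2nd against parental cells 7 of 16 compared were higher past the threshold, 0 lower, and the median was 0.78. They were Lum, Dcn and Bgn, of small matrix proteoglycans, Acta2, of smooth muscle actin, Col1a1, of collagen, Tnc, of the matrix protein tenascin, and S100a4, of a calcium-binding protein. Lum had 198, 1742 and 6133 across parental, BM 1st and BM 2nd cells, and Acta2 126, 139 and 1128. Lum, Dcn, S100a4 and Tnc were picked by the study from these arrays and are no independent evidence of direction. Without them 3 of 12 were higher, Bgn, Acta2 and Col1a1, with a median of 0.43. The list itself was chosen with earlier results of these data known, so these 3 are not independent evidence either. Col1a1 entered this comparison only through BM 2nd cells, at 412, since its 96.0 in parental cells was below background. In BM 1st against parental cells 3 of 16 passed, Lum, Bgn and Dcn, with a median of 0.25, or 1 of 12 without the picked genes. In BM 2nd against BM 1st cells 7 of 15 did, all higher, with a median of 0.84. Without the picked genes 4 of 11 were higher there, but the median was -0.06. Cdh2, the gene of N-cadherin, whose gain is a textbook sign of the transition, had 117, 132 and 117, and Fn1, of fibronectin, had 5860, 9131 and 5854, so neither differed between BM 2nd and parental cells by more than 0.01 in log2 ratio. Over the full list, picked genes included, the median without a background filter was 0.35 in BM 2nd against parental cells, and the mean over probes gave 0.59.

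Among genes of intermediate filaments, with their linkers and kinases, 0 of 10 compared passed in BM 2nd against parental cells, where the median was 0.24. Plec, the gene of the linker plectin, which binds vimentin, had 3861, 4386 and 7556 across parental, BM 1st and BM 2nd cells, a log2 ratio of 0.97 in BM 2nd against parental cells that passed the threshold after centring, at 1.11. In BM 1st against parental cells 3 of 10 were lower, Plk1, with 1142, 285 and 1953 across parental, BM 1st and BM 2nd cells, Aurkb, with a log2 ratio of -1.62, and Lmnb1, with -1.43, and the median was -0.12. Plk1 and Aurkb encode kinases of mitosis and Lmnb1 a nuclear lamin. These 3 were also the 3 of 10 past the threshold in BM 2nd against BM 1st cells, all higher there. Over all genes 1.79% were lower past the threshold in BM 1st against parental cells, and 3.01% higher in BM 2nd against BM 1st cells. Mitosis genes outside this list, such as Aurka, Birc5, Cdc20 and Cdca8, were likewise lower past the threshold in BM 1st against parental cells. In BM 2nd cells they were above the parental level. The fall in BM 1st cells was thus not particular to the filament list, and a link to vimentin was not tested. Of 18 signalling genes compared upstream of the factors, such as TGF-beta, Wnt and Notch genes, 1 passed in both comparisons with parental cells, Pdgfra, a growth factor receptor of mesenchymal cells, with 258, 851 and 1068 across parental, BM 1st and BM 2nd cells. The medians were 0.02 in BM 2nd and 0.14 in BM 1st cells against parental cells, and 0 of 18 passed in BM 2nd against BM 1st cells. Fgfr1 had log2 ratios of 0.80 and 0.82, Tgfb2 0.44 and 0.69, and Lif 0.44 and 0.69 in these comparisons.

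**Figure D4:**
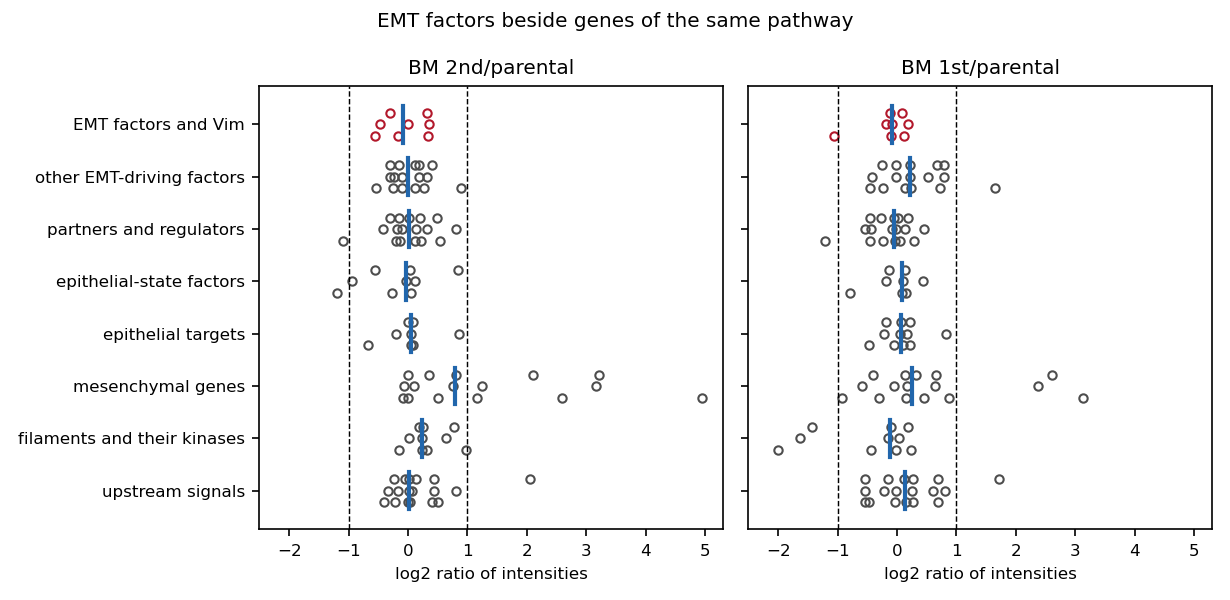
Log2 ratios as deposited, 1 open circle per gene compared, for the EMT factors with Vim (red) and 7 lists of the same pathway (grey), in BM 2nd to parental cells (left) and BM 1st to parental cells (right). Blue bars are medians and dashed lines mark 1 and -1. On the left the EMT factors have a median of -0.08 and no circle outside the dashed lines, while the mesenchymal genes have a median of 0.78 and 7 circles past the right line.

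Markers of other cells that bone cultures could hold also differed between the lines. Over all genes 1.83% were higher past the threshold in BM 2nd and 2.04% in BM 1st cells against parental cells. Of 19 stroma genes with a probe, 14 were above background on at least 1 array, and the summed intensity of the 19 was 4609, 11746 and 19925 across parental, BM 1st and BM 2nd cells. Lum, Dcn and Dpt, which the study picked, held most of the sub-lines' sums, and the other 16 summed to 3243, 3327 and 5404, so that without them BM 1st and parental cells were close. In BM 2nd against parental cells 5 of 14 passed, all higher, Lum, Dpt, Dcn, Col1a1 and Pdgfra, and in BM 1st against parental cells 4 of 11 were higher and 1, Fbln1, lower, with medians of 0.80 and 0.04. Without the picked genes 2 of 11 were higher in BM 2nd cells, with a median of 0.14, in a list also chosen with earlier results known. Without the background filter the median over the full list was 0.11, and after centring Sp7, an osteoblast factor, passed as well, at 1.07. This list shares 6 genes with the mesenchymal list, and of its defining collagens Col1a1 was above background in both sub-lines but not in parental cells, Col3a1 in all 3 lines and Col1a2 in parental cells alone. Of 19 leukocyte genes with a probe, 13 were above background on at least 1 array, and the summed intensity of the 19 was 2124, 6921 and 3680 in the same order. Of 9 compared in BM 2nd against parental cells 3 were higher, and in BM 1st against parental cells 4 of 13, with medians of 0.42 and 0.51, or 0.03 and 0.21 without the background filter. Lyz1, of lysozyme, had 159, 3169 and 1190, and Lyz2, Laptm5 and Fcer1g were also highest in BM 1st cells. Of the defining leukocyte markers, Itgam and Tyrobp were above background on none of the arrays and Ptprc in BM 1st cells alone, at 111. BM 1st cells were thus highest in the leukocyte sum. Most of the rise of that sum over parental cells lay in Lyz1 and Lyz2, the latter with 79.5, 1078 and 365 in the same order. The part of host cells in the Snai2 and mesenchymal values was not tested. Of 10 endothelial genes 8 were above background on no array. For the labelled lung origin, 7 of 10 lung epithelium markers were above background on no array, including Nkx2-1 and Sftpc.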

How the data were processed

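RNA of the 3 LLC/luc lines was measured on 1 bead array each. The deposited values are linear intensities made with GenomeStudio 2011.1, per the submitters' processing notes. How it was set for background and normalization is not stated in the labels or methods. Sorted intensities of the arrays differed by at most 0.274, so the authors' values had been quantile normalized, and they lay between 60.2 and 56032, with no background subtracted. Python 3.11.15 with pandas 2.3.3 and numpy 2.4.6 served for the log2 ratios, and matplotlib 3.10.9 for the plots. The platform annotation pairs 34885 probes with 1 gene, 18 with several and 10378 with none, and only the first kind was named. Each gene is represented by its brightest probe, by mean log2 intensity. Where 1 array of a pair was not above background, the fold is a lower limit, in which the dim side stands at its own intensity or at the background, whichever is higher.

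Named are every probe of the 9 genes, the 3 genes nearest to each of them past the threshold, and from each other list the genes past the threshold or, where these were fewer than 4, those with the largest ratios up to 4 in all. Other genes were named after their values were seen. The 9 genes and all lists were chosen with earlier results of these data known. The counting was checked on simulated data with large changes in bright genes, which does not test calls close to the threshold. Alternatives changed the centring, the background, the filter, the choice of probe and the threshold.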

Additional observations from a re-analysis of the deposited data

How the results depend on the processing

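The calls for the EMT factors and Vim, 0 in BM 2nd against parental cells, 1 in BM 1st against parental cells (Snai2) and 0 in BM 2nd against BM 1st cells, held under centring, background subtraction, the mean over probes, a 99th percentile background, no filter and, added after the data were seen, a 1.5-fold threshold. A filter, or a mean over 1 probe, cannot change the ratio of a gene, which fixed 63 of 120 single values of these genes. Of the other 57, 36 moved by less than the median SD between probes of a gene and 21 by more, and the called Snai2 value kept its sign. Calls per list under centring were also added after the data were seen. Centring moved the median of the EMT factors and Vim to 0.054 in BM 2nd against parental cells, where it was -0.08 as deposited, and to 0.20 in BM 2nd against BM 1st cells, where it was 0.04. These moves are the shifts of 0.14 and 0.16 that centring adds to every ratio of those comparisons. Sorted intensities were nearly equal on all arrays, so the array with the lowest background, BM 2nd, has the lowest median above it. Genes past the threshold over the whole array numbered 1131 in BM 2nd against parental, 1171 in BM 1st against parental and 1431 in BM 2nd against BM 1st cells after background subtraction, beside 356, 398 and 506 as deposited. A 1.5-fold threshold, which is lower by construction, gave 1363, 1335 and 1653. No paired analysis was possible because each line has 1 array. Signal over background limits Snai1, Zeb2, Cdh1 and the dim probe of Vim.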
